A study of Homo sapiens with 4 samples.

Results

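The cadherin superfamily was followed in DLD-1 cells, as the libraries are labelled, a colorectal cancer line, either treated with creatine (Creatine, 2 libraries) or left as controls (Ctrl, 2 libraries). All 4 libraries were labelled wild type, and neither the dose and duration of creatine nor what the controls received is given in the sources used here. Separate cultures are not stated, and p-values therefore reflect library-to-library spread that may be technical. Genes were chosen by symbol from the deposited gene table: numbered cadherins (CDH) and protocadherins (PCDH), and genes of the alpha, beta and gamma protocadherin clusters. Desmogleins (DSG1 to DSG4), desmocollins (DSC1 to DSC3), FAT1 to FAT4, CELSR1 to CELSR3 and DCHS1 and DCHS2 were also taken. PCDHAC1 and PCDHAC2 of the alpha cluster, and PCDH11X and PCDH11Y, did not match the symbols and were left out. This gave 102 genes of 34545 in the table.

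Cadherins are transmembrane proteins that hold neighbouring cells together through calcium-stabilised extracellular repeats. Classical cadherins bind p120-catenin and beta-catenin inside the cell and reach actin through alpha-catenin, desmosomal cadherins anchor keratin filaments through plakoglobin, plakophilins and desmoplakin, and FAT, Dachsous and CELSR cadherins orient cells within a sheet. E-cadherin (CDH1) is the main adhesion molecule of colon epithelium, and its replacement by N-cadherin (CDH2) is the textbook sign of an epithelial-mesenchymal transition. Clustered protocadherins lie in 3 tandem arrays and give neurons their individual surface identity.

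Libraries held 48249693 to 59860043 counts. Markers of the labelled tissue were scarce: of 17 colon epithelium markers, 2 reached a mean of 1 CPM (counts scaled to a common library size), CLDN4 and ESRP1, and EPCAM was at 2 counts in control 1 and at 0 elsewhere. ESRP1, an epithelial splicing regulator, had 128 and 99 counts in the controls and 217 and 212 with creatine (log2 change 1.06, edgeR adjusted p = 0.0051). The summed level of that list was 5.89 and 6.58 CPM in the controls and 7.64 and 7.50 CPM with creatine. Over the 16 markers other than ESRP1 the sum was 3.75 and 4.56 CPM in the controls and 3.42 and 3.07 CPM with creatine. None of these 16 that was tested passed an adjusted p of 0.05 (edgeR adjusted p from 0.37 for MUC2 to 0.94 for CLDN4). Of 15 mesenchymal markers 9 had a mean of at least 10 CPM, with sums of 6118 and 6009 CPM in the controls and 5493 and 5403 CPM with creatine. Endothelial markers summed to 373 and 386 CPM in the controls and 313 and 317 CPM with creatine, almost all of it TIE1, while CDH5 and KDR were near 0 and PECAM1 was not analysed here. Immune markers summed to 199 and 189 CPM and to 166 and 164 CPM, nearly all CD68 and CSF1R, with CD14 and PTPRC near 0. Neural and melanocyte markers summed to 212 and 229 CPM and to 178 and 178 CPM, led by TUBB3, with SOX10 at 2 counts in creatine 1 and 0 elsewhere. These marker levels go against the label of a colon epithelial line. Whether the cells were DLD-1 was not tested, and every level below is that of the libraries so labelled. The sums differed between the groups, upward for the colon epithelium list and downward for the other lists. Their part in the cadherin changes below was not tested. In bulk RNA, fewer cells of a type and less RNA per cell cannot be told apart. Among counts from 1 to 10, between 72.8% and 74.7% were even numbers, against 49.5% to 51.5% among counts from 1000 to 5000, and the labels do not say how read pairs were counted. Small counts and floors below are therefore approximate.

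Few cadherins made up most of the family's reads. CDH13, CDH2 and FAT1 each had a mean above 100 CPM and held 21.5%, 20.1% and 19.97% of all cadherin counts on average over the 4 libraries. A mean of at least 1 CPM was reached by 18 of the 102 genes and of at least 5 CPM by 11. Another 24 were counted below 1 CPM, and 60 had 0 counts in all 4 libraries, or 58.8%, against 12.9% of 18610 protein-coding symbols in the table. A count of 0 still allows up to 3 counts, or 0.0501 to 0.0627 CPM depending on the library. Such floors cover counting error alone.

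**Figure D1:**
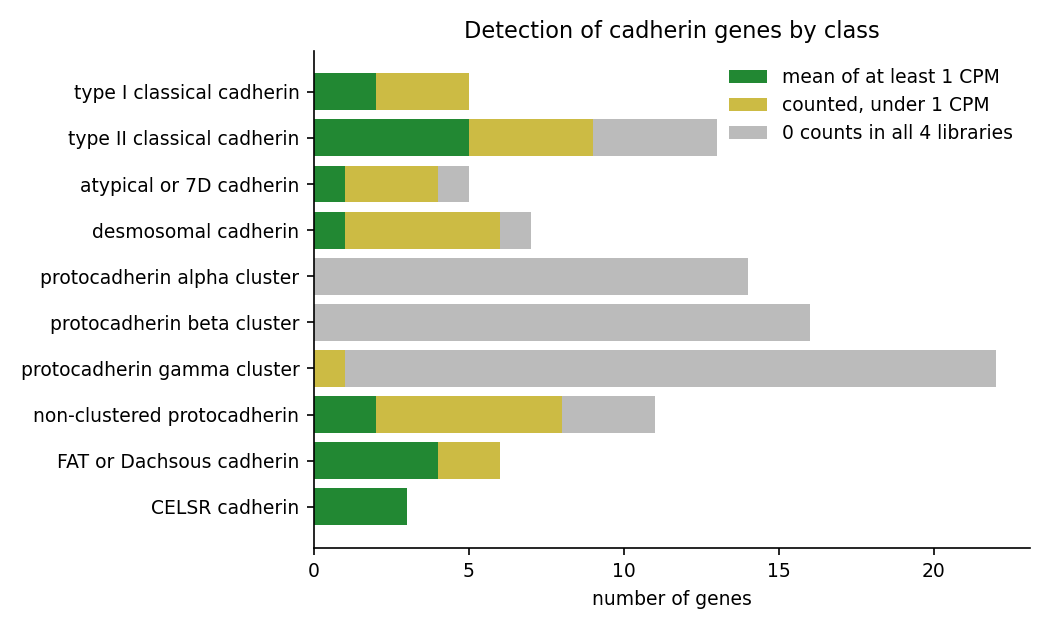
Number of cadherin genes per class, split into those with a mean of at least 1 CPM over the 4 libraries, those counted below that level and those with 0 counts in all 4 libraries. The alpha and beta protocadherin clusters are entirely at 0, and the gamma cluster has 1 counted gene of 22, while all 3 CELSR genes exceed 1 CPM.

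Among type I classical cadherins, which carry the catenin-binding tail, N-cadherin was abundant and E-cadherin nearly absent. CDH2 (chromosome 18, 27950966 to 28177446, GRCh38) was at 180 and 158 CPM in the controls and at 196 and 176 CPM with creatine. CDH1 (chromosome 16, 68737225 to 68835548) had 19 and 14 counts in the controls and 20 and 10 with creatine. Per kilobase of deposited gene length, the CDH2 level was 631 to 1051 times that of CDH1, depending on the library. R-cadherin (CDH4), known from the retina, was the other abundant type I member, at 57.5 and 59.4 CPM in the controls and 48.4 and 52.1 CPM with creatine, with both creatine libraries below both controls. M-cadherin (CDH15), known from muscle, had 38 counts in control 1 and 10 to 13 in the others, and P-cadherin (CDH3), of basal epithelium, had 0, 10, 2 and 0 counts in control 1, control 2, creatine 1 and creatine 2.

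Of 13 type II classical cadherins, 2 had a mean of at least 5 CPM. CDH24, which binds catenins like the type I members, was at 47.5 and 52.2 CPM in the controls and at 37.3 and 42.9 CPM with creatine. CDH11, the osteoblast cadherin of mesenchymal cells, was at 21.0 and 20.3 CPM in the controls and 20.7 and 21.2 CPM with creatine, with overlapping groups. CDH8, CDH10 and CDH18, which are known from the nervous system, had means between 1 and 5 CPM. VE-cadherin (CDH5) of endothelium had 14 and 0 counts in the controls and 9 and 0 with creatine, and K-cadherin (CDH6) of kidney had 2 counts in creatine 2 and 0 elsewhere. CDH7, CDH9, CDH19 and CDH22 had 0 counts in every library.

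Among cadherins without a classical tail, T-cadherin (CDH13; chromosome 16, 82626803 to 83800640), which is held in the membrane by a lipid anchor, stood at 195 and 189 CPM in the controls and 195 and 182 CPM with creatine. Liver-intestine cadherin (CDH17), an intestinal marker, had 5 to 10 counts per library. CDH23, a tip-link protein of hair cells, had 21 to 52 counts. CDH16 had 0 counts throughout.

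Per kilobase of gene length and by library size (RPKM), the order of mean levels was CDH2 at 35.9, CDH13 at 17, CDH24 at 12, DSG2 at 11.6, FAT1 at 11, CDH4 at 7.39, PCDH1 at 4.53, CELSR3 at 4.14, CELSR1 at 2.43, CDH11 at 1.55 and CELSR2 at 0.899. The deposited length joins the exons of all isoforms, so a gene with many unused exons is understated on this scale. CDH24, DSG2 and FAT1 overlapped between libraries and could not be ordered. The ranges of PCDH1 and CELSR3 overlapped too, with PCDH1 the higher of the pair within each library.

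**Figure D2:**
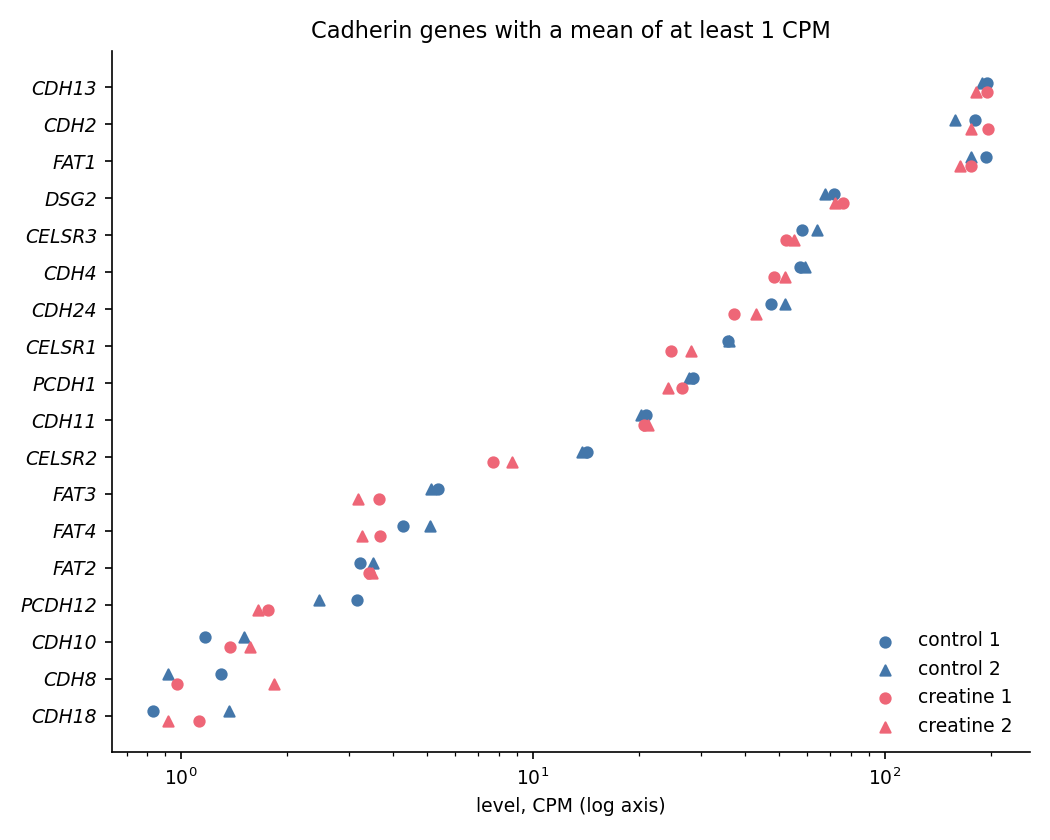
Levels in CPM on a log axis of the 18 cadherin genes with a mean of at least 1 CPM, with 1 point per library. CDH13, CDH2 and FAT1 lie between 158 and 196 CPM in all 4 libraries, and CELSR2 separates the groups most clearly, at 13.8 and 14.2 CPM in controls against 7.69 and 8.71 CPM with creatine.

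Of the 7 desmosomal cadherins, DSG2 was abundant without a matching desmocollin. DSG2, the desmoglein of simple epithelia and heart (chromosome 18, 31498043 to 31549008), was at 71.5 and 67.7 CPM in the controls and 76.0 and 72.4 CPM with creatine. DSC2 (chromosome 18, 31058840 to 31102522), which pairs with it in desmosomes, had 12 and 32 counts in the controls and 24 and 28 with creatine. Per length, the DSG2 level was 208 to 714 times that of DSC2. DSC1 had 26 to 64 counts, and DSC3, DSG1 and DSG3, of stratified epithelium, had at most 10 counts in any library, while DSG4 had 0. Plaque and associated proteins of the desmosome spanned a wide range of levels. PERP, a membrane protein needed for desmosome assembly, was at 199 ± 11.1 CPM in the controls and 218 ± 9.46 CPM with creatine, and the plakophilin PKP3 had means of 15.4 and 12.7 CPM. Plakoglobin (JUP) had 4 to 10 counts per library, desmoplakin (DSP) was at 1.37 ± 0.426 CPM in the controls and 1.23 ± 0.390 CPM with creatine (± SD, 2 libraries each), and the plakophilin PKP2 was at 7.23 ± 0.800 and 7.36 ± 0.962 CPM.

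The promoters of DSG2 and DSC2 are shown because these desmosomal partners, whose genes lie within the same cluster on chromosome 18, stood so far apart in level. Each window runs from 250 bases before to 50 after the annotated start, from RefSeq on GRCh38.p14, and capitals mark the E-box CACCTG and its reverse complement CAGGTG, the motif to which the repressors SNAI1, SNAI2 and ZEB1 bind in the E-cadherin promoter. The windows are chr18:31497927-31498226 on the plus strand for DSG2 and chr18:31102372-31102671 on the minus strand for DSC2.
DSG2: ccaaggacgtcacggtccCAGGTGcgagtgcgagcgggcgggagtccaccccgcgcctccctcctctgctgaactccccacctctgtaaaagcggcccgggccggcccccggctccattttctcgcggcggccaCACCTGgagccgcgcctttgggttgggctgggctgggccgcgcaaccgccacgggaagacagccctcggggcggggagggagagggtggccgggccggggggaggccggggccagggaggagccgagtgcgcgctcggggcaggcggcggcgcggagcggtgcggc
DSC2: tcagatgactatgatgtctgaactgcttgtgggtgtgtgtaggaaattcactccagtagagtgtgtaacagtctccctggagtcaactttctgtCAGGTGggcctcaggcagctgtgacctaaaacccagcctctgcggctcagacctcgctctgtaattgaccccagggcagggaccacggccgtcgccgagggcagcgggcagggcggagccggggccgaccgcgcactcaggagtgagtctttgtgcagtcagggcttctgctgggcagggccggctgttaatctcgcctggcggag
The more abundant gene had 2 matches and the scarcer one 1, and the GC content of the windows was 76.7% and 60.7%. The motif, on either strand, was found in 20.6% of 35116 promoter windows of this length and in 12 of 96 windows, or 12.5%, of the 77 cadherin genes with a window in the RefSeq table, which left 25 of the 102 without one. A match is a description of the letters and not evidence of binding.

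The clustered protocadherins were almost all at 0. Of the 52 genes chosen from the alpha, beta and gamma clusters, 51 had 0 counts in all 4 libraries, or 98.1%, against 18% of the 50 other cadherin genes. The exception was PCDHGA1 (chromosome 5, 141330571 to 141512981), with 4 and 10 counts in the controls and 1 and 3 with creatine. PCDHAC1 and PCDHAC2, the alpha genes left out, also had 0 counts in all 4 libraries. The clusters run along chromosome 5 from 140786136 to 141012347 (alpha), 141051135 to 141249365 (beta) and 141330571 to 141512981 (gamma). TAF7, a subunit of the general transcription factor TFIID that lies between the beta and gamma clusters, had 6821 and 5340 counts in the controls and 5820 and 5917 with creatine. SLC25A2, the other protein-coding gene between the ends of the clusters, had 0 counts. Within 800 kb of the start of TAF7, 20 of 21 protein-coding genes that are not protocadherins had at least 1 count. Of these 20, CD14 had 2 counts in creatine 1 and 0 elsewhere, and EIF4EBP3 had 2 to 10 counts per library. The lowest count among the others was 243, of NDUFA2 in control 2.

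Alpha and gamma genes each splice a private first exon to constant exons shared by their whole cluster, and reads from shared exons cannot be given to 1 gene. In GENCODE 29, a median of 51.9% of the exonic bases of alpha genes and 56.1% of those of gamma genes were covered by no other gene on the same strand. The exception was PCDHA14, annotated as a pseudogene, all of whose bases are shared. Genes of the beta cluster are single units, with 90.6% to 100% of their bases private on their strand. The gene lengths in the table equalled the exonic bases of GENCODE 29 for 90 of the 102 cadherin genes. Whether the authors dropped reads that matched several places is not given in the sources used here, and its part in the zeros was not tested.

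**Figure D3:**
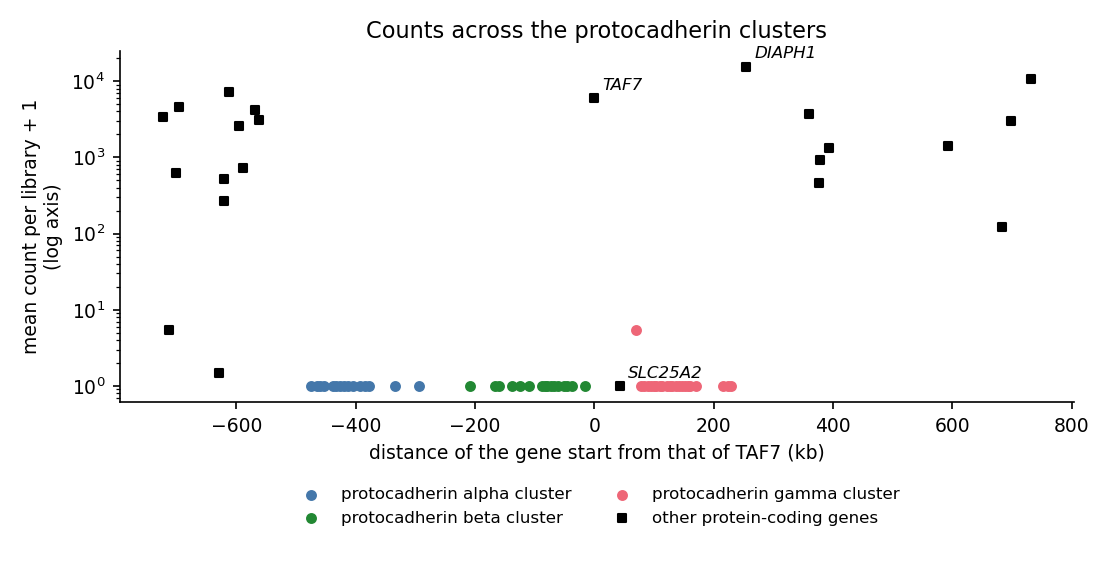
Mean count per library plus 1, on a log axis, of protein-coding genes by the distance of their start from that of TAF7 in kb. The 3 protocadherin clusters sit at 0 counts apart from PCDHGA1, while TAF7, at a distance of 0, has 5340 to 6821 counts per library.

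Promoters of 1 gene from each cluster are shown because a short element with the core CGCT is the known shared feature of these promoters. Capitals mark TGNCGCT or its reverse complement AGCGNCA, a form chosen after looking at recurring words in these windows. The windows, all on the plus strand of GRCh38.p14 from RefSeq, are chr5:140806818-140807117 for PCDHA4, chr5:141172394-141172693 for PCDHB7 and chr5:141387448-141387747 for PCDHGB4.
PCDHA4: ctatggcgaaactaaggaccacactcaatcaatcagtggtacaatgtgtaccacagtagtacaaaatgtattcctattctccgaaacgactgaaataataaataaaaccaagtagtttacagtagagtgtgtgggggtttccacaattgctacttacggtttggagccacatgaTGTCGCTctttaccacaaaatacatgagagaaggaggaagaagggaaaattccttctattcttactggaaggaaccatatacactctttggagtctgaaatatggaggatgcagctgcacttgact
PCDHB7: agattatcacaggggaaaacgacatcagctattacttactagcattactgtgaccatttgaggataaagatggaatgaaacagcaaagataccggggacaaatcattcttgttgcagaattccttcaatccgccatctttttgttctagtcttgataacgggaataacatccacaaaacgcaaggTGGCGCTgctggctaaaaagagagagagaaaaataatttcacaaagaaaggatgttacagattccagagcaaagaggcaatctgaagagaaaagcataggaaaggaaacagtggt
PCDHGB4: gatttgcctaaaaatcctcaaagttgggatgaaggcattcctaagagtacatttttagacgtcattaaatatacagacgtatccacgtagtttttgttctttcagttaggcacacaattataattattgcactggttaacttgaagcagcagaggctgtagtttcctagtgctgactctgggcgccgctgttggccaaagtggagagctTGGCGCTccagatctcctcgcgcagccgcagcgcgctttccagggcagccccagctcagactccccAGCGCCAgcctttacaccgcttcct
The element was present in 34 of 50 windows of clustered protocadherins, or 68%, in 12 of 46 windows of the other cadherin genes, or 26.1%, and in 10.9% of all 35116 windows. Because the form of the element was chosen from these windows, its higher share in them was partly fixed by that choice. The windows shown each hold a match, which not all windows of the clusters do. Many windows of a cluster are copies of one another and are not independent. Genes known to act on these promoters were expressed: CTCF, which loops enhancers to them, was at 84.2 ± 8.50 CPM in the controls and 79.8 ± 0.757 CPM with creatine, and SMCHD1, a repressor of the clusters, was at 65.8 ± 1.48 and 79.6 ± 1.66 CPM (SD, n = 2 each).

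Outside the clusters, 8 of the 11 protocadherins chosen were counted. PCDH1, an adhesion protein of airway epithelium, was at 28.5 and 27.8 CPM in the controls and 26.5 and 24.2 CPM with creatine. PCDH12, of vascular endothelium, was at 3.15 and 2.47 CPM in the controls and 1.77 and 1.65 CPM with creatine, so that both creatine libraries lay below both controls. PCDH9 and PCDH15 had 16 to 60 counts, PCDH7, PCDH17, PCDH18 and PCDH19 had at most 18, and PCDH8, PCDH10 and PCDH20 had 0.

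The giant cadherins were present in part. FAT1, which restrains growth and binds regulators of actin (chromosome 4, 186587783 to 186726722), was at 194 and 176 CPM in the controls and 175 and 164 CPM with creatine. FAT2, FAT3 and FAT4 had means between 1 and 5 CPM. DCHS1, the ligand of FAT4, had 6 and 20 counts in the controls and 16 and 2 with creatine, and DCHS2 had 2 counts in creatine 1 and 0 elsewhere. CELSR1, CELSR2 and CELSR3, the mammalian relatives of the fly polarity protein Flamingo, were all above 5 CPM. CELSR3 was the highest of them, at 58.0 and 64.1 CPM in the controls and 52.4 and 55.1 CPM with creatine.

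With creatine, 4 cadherin genes were lower, CELSR2, CELSR1, CDH24 and FAT3, and 0 were higher, of 27 with enough counts to be tested (edgeR quasi-likelihood test, Benjamini-Hochberg adjustment over all 15302 genes tested, threshold 0.05). At an unadjusted p under 0.05 there were 7 in all, each of them lower, but the share of all genes at that threshold is not given here. DESeq2 also called 0 higher, with an adjusted p for 11 of the 27. The 75 genes that the filter on low counts removed include all clustered protocadherins. The share called lower, 14.8% of the 27, lies near the 10.5% of all genes tested that were called lower, and 9.15% of all genes tested were called higher (19.6% in either direction). The median log2 change of the 27 was -0.18, against 0.01 over all genes tested. In 13 of the 27 both creatine libraries lay below both controls and in 1, DSG2, above, against 28.9% and 29.2% of all genes tested (58.2% without overlap in either direction).

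CELSR2 (chromosome 1, 109250019 to 109275750) was at 14.2 and 13.8 CPM in the controls and 7.69 and 8.71 CPM with creatine. The groups did not overlap, and the log2 change was -0.77 (SE 0.14, edgeR adjusted p = 0.0010). CELSR1 (chromosome 22, 46360834 to 46537170) was at 35.7 and 36.0 CPM in the controls and 24.6 and 28.1 CPM with creatine, a log2 change of -0.44 (SE 0.10, edgeR adjusted p = 0.0044). Both creatine libraries lay below both controls for CELSR1 as well, and for CELSR3 too, whose change of -0.18 did not pass (edgeR adjusted p = 0.13). CELSR proteins set planar cell polarity, the orientation of cells across a tissue sheet.

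CDH24 (chromosome 14, 23047062 to 23057538) fell by 0.31 on the log2 scale from the levels given above (SE 0.10, edgeR adjusted p = 0.023), without overlap between the groups. FAT3 (chromosome 11, 92352096 to 92896470), known from neuron shape in the mouse retina, was at 5.36 and 5.13 CPM in the controls and 3.65 and 3.17 CPM with creatine, a log2 change of -0.62 (SE 0.21, edgeR adjusted p = 0.042). Its groups did not overlap, but it lost its call with any 1 of the 4 libraries left out, with adjusted p between 0.0590 and 0.192, and DESeq2 gave it no adjusted p. Without creatine replicate 1, CELSR1 (adjusted p = 0.0883) and CDH24 (0.300) did not pass either, which left CELSR2 as the 1 gene called, and CDH24 did not pass without control replicate 2 (0.0748).

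The other 23 cadherin genes tested did not pass, among them the 4 most abundant of the family. CDH2 had a log2 change of 0.14 (95% interval -0.02 to 0.29, edgeR adjusted p = 0.22), and it passed without control replicate 1 (0.23, adjusted p = 0.018). FAT1 was at -0.13 (95% interval -0.27 to 0.02, edgeR adjusted p = 0.22), and it passed without control replicate 2 (-0.21, adjusted p = 0.022). CDH13 was at -0.03 (-0.17 to 0.11), DSG2 at 0.09 (-0.07 to 0.25), CDH11 at 0.02 (-0.21 to 0.25) and PCDH1 at -0.15 (-0.36 to 0.07). CDH4 was at -0.22 (-0.39 to -0.04, edgeR adjusted p = 0.074), and FAT4 and PCDH12 at -0.43 and -0.72 (edgeR adjusted p = 0.18 and 0.095). CDH1 was at -0.01 with an interval from -1.67 to 1.65, so a difference of several-fold in either direction would not have been detectable at this depth.

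Over all genes, calls divided by the GC content of the transcript, with a median log2 change of 0.19 under 45% GC and -0.23 over 55%. The 9 cadherin genes tested over 55% all had negative changes, with a median of -0.44, and the 12 under 45% had both signs, with a median of 0.06. Transcripts of CDH24, CELSR1, CELSR2 and CELSR3 had a GC content of 64.2%, 61.4%, 60.3% and 61.4%, and those of the abundant CDH2, CDH13 and DSG2 of 45%, 43.2% and 42.0%. Among genes over 55% GC, 28% of 4252 were called lower, and 3 of 9 cadherin genes were. Among genes under 45%, 0.295% of 5761 were called lower, and 0 of 12 cadherin genes were. Once GC content and gene length were corrected for, 0 cadherin genes passed in either direction. At an unadjusted p under 0.05 there were 3, again without an all-gene share to set beside them. Of all genes tested, 1.24% and 1.14% were called higher and lower after this correction (2.38% in all). CELSR2 then had a log2 change of -0.49 (edgeR adjusted p = 0.069), FAT3 of -0.63 (0.12), CELSR1 of -0.15 (0.49) and CDH24 of -0.05 (0.85). With GC content alone in the correction, CELSR2 passed (-0.55, adjusted p = 0.030). FAT3, at 45% GC, was at -0.71 with GC content alone in the correction, and CDH4, CELSR3 and PCDH1 took the opposite sign (0.04, 0.12 and 0.12) with GC content and length corrected for.

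**Figure D4:**
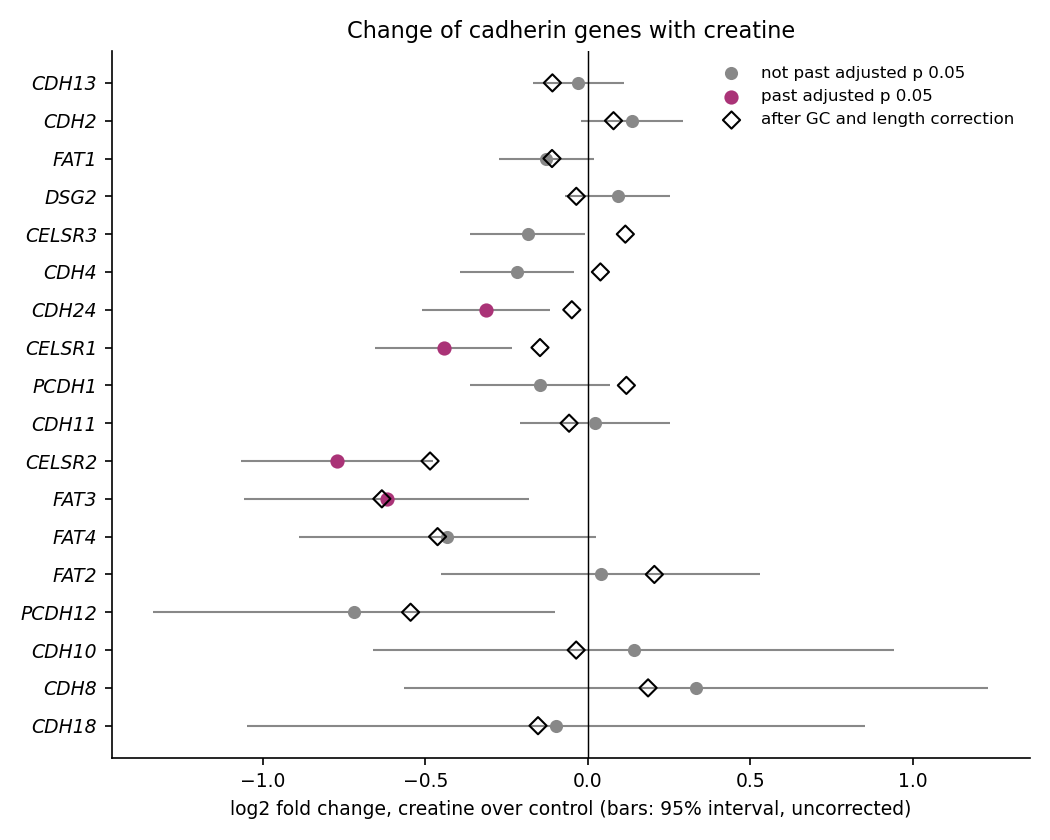
Log2 fold change, creatine over control, of the 18 cadherin genes with a mean of at least 1 CPM, with the 95% interval as a bar and the value corrected for GC content and gene length as an open diamond. CELSR2, CELSR1, CDH24 and FAT3 passed before correction, and after it CDH24 moved from -0.31 to -0.05 while FAT3 moved from -0.62 to -0.63.

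Of 79 genes that work with cadherins, 73 were tested, and 13 were higher and 12 lower, or 17.8% and 16.4%, against 9.15% and 10.5% of all genes tested. Levels differ between these sets: 69 of the 79 had a mean of at least 1 CPM, against 12384 of all 15302 genes tested. Under a filter of 1 CPM in 2 libraries, 14 partners were higher and 12 lower of 69 tested. Of all 12499 genes tested under that filter, 1596 were higher and 1704 lower. The catenins that link classical cadherins to actin did not pass: beta-catenin (CTNNB1) was at 820 ± 37.6 CPM in the controls and 809 ± 31.0 CPM with creatine (log2 change -0.02), and alpha-catenin (CTNNA1) at 405 ± 4.199 and 391 ± 2.72 CPM (-0.05; SD, n = 2 each). The p120-catenin gene CTNND1, which stabilises cadherins at the surface, was far lower, at 2.77 and 2.36 CPM in the controls and 3.07 and 3.45 CPM with creatine. Per length, CTNNB1 was 321 to 446 times as high as CTNND1. Exons of other genes cover 4.64% of the exonic bases of CTNND1 on its strand. The p120 relatives ARVCF and PKP4 were at 5.66 ± 0.710 and 88.3 ± 2.76 CPM in controls, and at 4.91 ± 0.592 and 80.0 ± 2.86 CPM with creatine.

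Nectins, which start junctions before cadherins gather, were lower for 2 of 4 genes, NECTIN1 and NECTIN2. Both lie over 55% GC (60.4% and 59.4%), where 28% of genes were called lower, against 10.5% of all genes tested. With GC content and gene length corrected for, they were at -0.19 and -0.16 and did not pass (edgeR adjusted p = 0.41 and 0.22). NECTIN2 fell from 97.2 ± 3.30 to 74.1 ± 0.765 CPM (-0.39, edgeR adjusted p = 0.0012) and NECTIN1 from 24.5 ± 0.160 to 17.8 ± 0.494 CPM (-0.46, edgeR adjusted p = 0.0059; SD, n = 2 each), while NECTIN3 and NECTIN4 were at 0.13 and -0.07. With creatine replicate 1 left out, NECTIN1 missed the threshold (adjusted p = 0.0533). Among 9 tested repressors of E-cadherin, ZEB1 rose from 62.3 ± 3.28 to 82.9 ± 3.86 CPM (0.41, edgeR adjusted p = 0.0013) and TCF3 fell from 124 ± 1.92 to 89.2 ± 5.76 CPM (-0.47, edgeR adjusted p = 3.1e-04). SNAI2, at 40.6 ± 0.115 CPM in controls, SNAI1, at 1.75 ± 0.0641, TWIST1, at 7.79 ± 0.511, and ZEB2, at 42.4 ± 0.722, had changes of 0.11, -0.38, -0.33 and 0.21 that did not pass. Of the sheddases that cut cadherins at the cell surface, ADAM10 and ADAM17 rose by 0.24 and 0.29, and ADAM15 fell by 0.30 on the log2 scale (edgeR adjusted p = 0.025, 0.0076 and 0.0037). ADAM10 missed the threshold without control replicate 2 (adjusted p = 0.145) or creatine replicate 1 (0.321), ADAM15 without creatine replicate 1 (0.0925) and ADAM17 without creatine replicate 2 (0.129).

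In planar cell polarity, 3 of 11 tested partners of the CELSR proteins were lower, the Dishevelled genes DVL1 (-0.35), DVL2 (-0.40) and DVL3 (-0.30), which pass on Frizzled signals, and 1 was higher, the receptor FZD6 (0.31; edgeR adjusted p = 0.0035, 0.0016, 0.0057 and 0.0054). Of all genes over 55% GC, where the Dishevelled genes lie, 28% were called lower, and of those under 45%, where FZD6 lies, 21.1% were called higher. DVL1 missed the threshold without creatine replicate 1 (-0.22, adjusted p = 0.149), and DVL3 (0.0648) and FZD6 (0.0567) missed it without creatine replicate 2. VANGL1, a membrane partner of CELSR1, was at -0.11 (edgeR adjusted p = 0.47). Of 6 genes of the FAT and Dachsous pathway, 3 were lower, ATN1 (-0.44), TAOK2 (-0.24) and FJX1 (-0.36), the last a relative of the fly kinase Four-jointed that modifies these cadherins. These 3 also lie over 55% GC. FJX1 held its call in 1 of the 4 fits that left out a library (adjusted p = 0.0608 to 0.217 in the others), and TAOK2 missed the threshold without control replicate 2 (0.104) or creatine replicate 1 (0.436). Of 16 genes tied to the choice and signalling of clustered protocadherins, 6 were higher and 1 was lower. On the log2 scale, the cohesin genes SMC3, STAG1 and STAG2 rose by 0.40, 0.40 and 0.41. The cohesin genes RAD21 (0.16, edgeR adjusted p = 0.0999) and SMC1A (-0.07, edgeR adjusted p = 0.55) did not pass. NIPBL (0.30), SMCHD1 (0.27) and the actin regulator NCKAP1 (0.27) rose too, and CYFIP1, of the same WAVE complex as NCKAP1, fell by 0.27. The 6 higher genes all lie under 45% GC. NIPBL held its call in 1 of the 4 fits that left out a library (adjusted p = 0.0603 to 0.106 in the others), SMCHD1 missed the threshold without creatine replicate 1 (0.148) or 2 (0.0638), and so did NCKAP1 (0.0593 and 0.0561). NECTIN2, TCF3, ATN1 and the Dishevelled genes had a transcript GC content of 56.8% to 67.2%, and ZEB1, STAG1, STAG2, SMC3, ADAM10 and ADAM17 of 36.6% to 40.2%. After correction, 1 partner passed, CYFIP1 (-0.24, edgeR adjusted p = 0.034), which before correction missed the threshold without creatine replicate 2 (0.0913).

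**Figure D5:**
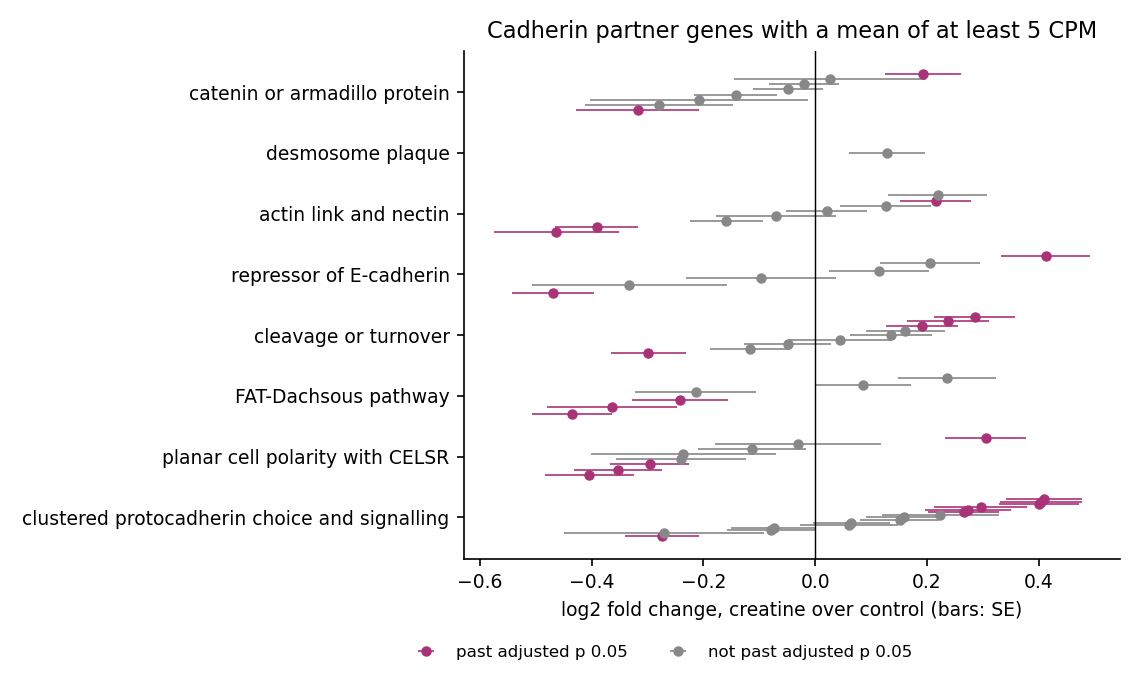
Log2 fold change, creatine over control, with its SE, of cadherin partner genes with a mean of at least 5 CPM, grouped by role. Genes past an adjusted p of 0.05 lie on both sides of 0. Among them, the 3 Dishevelled genes are on the lower side and the cohesin genes SMC3, STAG1 and STAG2 on the higher side. RAD21 and SMC1A, also of cohesin, did not pass.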

How the data were processed

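Gene expression was measured by RNA sequencing of total RNA in 4 libraries. Per the labels' protocols, libraries were made with a TruSeq RNA kit. Per the submitters' processing notes, FastQC 0.11.9, HISAT2 2.2.1, featureCounts and DESeq2 were used with GRCh38. These notes name neither an annotation release nor a strand setting. The authors deposited whole-number counts per gene symbol, not normalized, with a gene length in bases, and 34408 of 34545 symbols matched GENCODE 29.

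The test was that of edgeR 4.0.16 in R 4.3.3 (filterByExpr, TMM, quasi-likelihood, group as the only term), with Benjamini-Hochberg adjustment across the 15302 genes kept. With 2 libraries a group, the smallest two-sided p of an exact permutation test is 0.333. CPM values use the same scaling. The correction enters a smooth trend of each library on transcript GC content and gene length (mgcv 1.9.3) as an offset, and 23 genes without a GC value took the median. Counts were simulated for this comparison, with 14960 genes tested. For genes of at least 5 CPM, 52% of changes of 1.25-fold, 96% of 1.5-fold and 2-fold, and 100% of 4-fold were recovered. There were 7 false calls. The simulated counts held no trend on GC content or gene length, and 50 genes were changed at each fold. Recovery and false calls in the real libraries may therefore differ. Chi-square over degrees of freedom between libraries of a group was 16.1 (controls) and 8.97 (creatine), above the 1 of sampling noise. Alternatives were other scaling and filters, DESeq2 1.42.0, robust edgeR, a replicate block, the corrections and each library left out.

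The members, lists and tests were chosen with earlier results of these data known. Genes named are the members past the threshold, those of at least 5 CPM, the highest per length of each class and some fixed ones, with up to 15 partners of smallest p and fixed partners. Others were chosen after their values were seen.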

Additional observations from a re-analysis of the deposited data

How the results depend on the processing

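The 4 cadherin genes called lower numbered 3 to 5 under other scaling, other filters, DESeq2, robust edgeR and the replicate block. None of these settings made a cadherin gene higher, though DESeq2 gave an adjusted p to only 11 of the 27. Genes called lower numbered 0 with GC content and gene length corrected for, and 1 for GC content alone. The correction with the replicate block also left 1, and it was CELSR2 both times (edgeR adjusted p = 0.030 and 0.042). With 1 library left out, 1 to 3 were lower and 0 to 1 higher. The 13 partners called higher and 12 called lower became 0 and 1 with both corrected for, 0 and 2 for GC content alone and 1 and 1 for the correction with the replicate block, and with 1 library left out they ranged from 6 to 15 and from 6 to 12. The corrections take away any change that follows GC content, whatever produced it. The count of cadherin genes of at least 1 CPM stayed at 17 to 18.

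Deviations of replicate 1 from its group correlated by -0.0228 between the groups, which gave no sign that replicate numbers pair the libraries. A single correlation over all genes cannot exclude a pairing. Over all genes tested, 1844 were called higher and 1951 lower with a replicate block, against 1400 and 1601 without it. With the replicate block, 5 cadherin genes were lower, CDH4 having passed (adjusted p = 0.046), with 14 partners higher and 12 lower.

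Log2 changes of named genes took the opposite sign in these cases. In the order GC with length, GC alone, and GC with length plus the replicate block, they were CDH11 (-0.0575, -0.117, -0.0581), CELSR3 (0.116, 0.0457, 0.117), DSG2 (-0.0353, -0.0689, -0.0351), PCDH1 (0.119, 0.0735, 0.116) and SNAI2 (-0.13, -0.0593, -0.129). CDH4 turned with GC and length, without and with the block (0.0388 and 0.0387), as did CDH1 without it (0.0365). TAOK2 turned in the same 2 fits as CDH4 (0.0525 and 0.052), and PKP2 (-0.0234) and ZEB2 (-0.011) turned with GC alone. With 1 library left out, log2 changes ranged from -0.0152 to 0.0459 for CDH11, -0.0813 to 0.014 for CDH13, -0.526 to 0.359 for CDH1, -0.312 to 1.37 for DSC2, -0.0800 to 0.027 for CTNNB1, -0.523 to 0.183 for DSP, -0.117 to 0.148 for PKP2, -0.191 to 0.0284 for CTCF and -0.251 to 0.0232 for VANGL1. Of these genes, TAOK2 alone had passed in the test without corrections. Small counts, and 2 libraries a group, limit what could be detected for the cadherin genes below 1 CPM.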
